A study of Mus musculus with 6 samples.

Results

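The genes described here mark the liver lineage: 34 genes of hepatoblasts, hepatocytes and bile duct cells, chosen by symbol, out of 21671 named genes in the table. All 34 had a row. They were measured in subcutaneous tumours of transformed hepatoblasts grown in CD1 nude ho mice, an athymic strain that lacks most T cells. In both groups the injected cells carried TtRMPVIR shST18, a doxycycline-dependent construct that makes a hairpin RNA against St18, a zinc finger gene. One group was untreated (3 libraries, with the genotype label wild type). The other was taken 4 h after oral gavage with 300 µl of water holding doxycycline at 200 mg/ml (3 libraries, with the genotype label ST18 knockdown). Drug, gavage and hairpin therefore differ together between the groups. The labels used here do not say how the hepatoblasts were transformed, whether they were 1 clone, how old the mice were, or whether each library came from its own animal, so p-values measure the spread between these libraries. RNA was depleted of ribosomal RNA before sequencing, and reads were counted per gene.

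Hepatoblasts are the fetal liver progenitors that give rise to hepatocytes and to the cholangiocytes of the bile ducts. Fetal hepatoblasts make alpha-fetoprotein and albumin and carry keratins 8 and 18. Hepatocytes go on to secrete most plasma proteins under a network of factors that includes HNF4A, the FOXA proteins and C/EBP alpha, while cholangiocytes keep SOX9 and add keratins 7 and 19. In liver tumours, AFP and glypican 3 are the classical oncofetal products, and MET with its ligand HGF is a growth pathway of liver progenitors.

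Libraries held 12090309 to 16169043 counts. The hairpin's target did not show a knockdown at this time. St18 had 12, 23 and 19 counts untreated (replicates 1 to 3) against 34, 12 and 61 in the libraries with the knockdown label (log2 fold change 1.03, edgeR adjusted p = 0.298). Marker transcripts of muscle, connective tissue and skin differed in level between libraries, as the plot of marker lists by library shows. Which cells made them was not tested. Summed skeletal muscle markers were at 84.0 to 235.0 CPM (counts scaled to the same library total) in the untreated and 449 to 3069 CPM in the doxycycline libraries, highest in doxycycline replicate 2, with all 15 markers detected. Fibroblast and mural markers summed to 1302 to 1347 and 1713 to 1984 CPM. Keratinocyte markers stood apart in 1 library of each group: they summed to 99.5 CPM in untreated replicate 2 and 130 CPM in doxycycline replicate 1, against 7.07 to 9.57 CPM in the other 4. Krt5, a basal keratinocyte keratin, had 410 and 299 counts in those libraries and 0 to 3 in the rest.

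**Figure D1:**
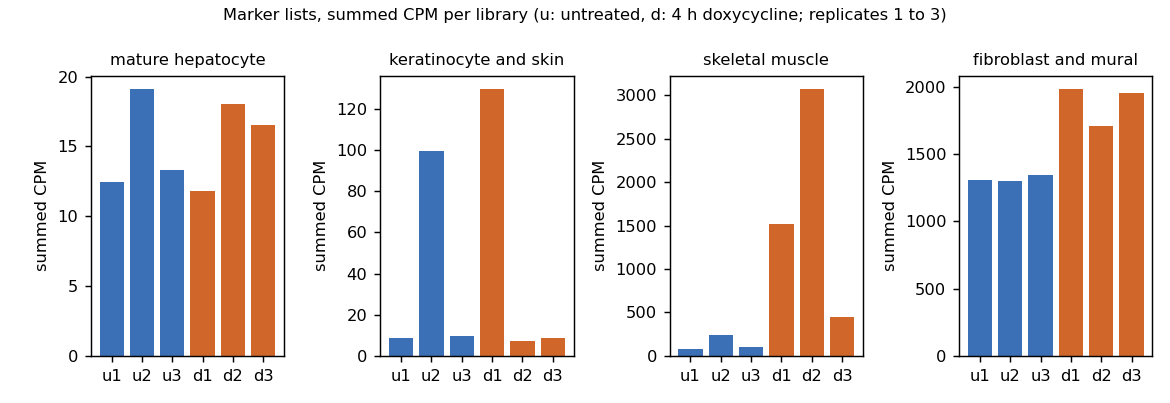
Summed CPM of 4 marker lists in each library, with untreated replicates 1 to 3 in blue (u1 to u3) and doxycycline replicates 1 to 3 in orange (d1 to d3). Mature hepatocyte markers summed to 11.8 to 19.1 CPM, most of it from Slc10a1 (9.30 to 16.9 CPM) and then Cyp2e1 (1.36 to 2.47 CPM). Keratinocyte markers were high in u2 and d1, and muscle markers ran from 449 to 3069 CPM in d1 to d3.

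Promoter windows of 4 lineage genes are shown because they bracket the results: Alb and Afp, the defining hepatocyte and hepatoblast genes, were almost silent, Krt18 was the most abundant lineage gene per length, and Gpc3 was the only member past the threshold between the groups. Each window runs 5′ to 3′ on the gene's strand from 250 bases before the transcription start to 50 after it. The sequences are from RefSeq on GRCm38.p6, which is not the authors' mm9, and were matched by symbol. Capitals mark any match, on either strand, to the TATA box letters TATAAA, the FOXA letters TGTTTAC or the HNF4 core CAAAGTC.
Alb, chr5:90460620-90460919, plus strand: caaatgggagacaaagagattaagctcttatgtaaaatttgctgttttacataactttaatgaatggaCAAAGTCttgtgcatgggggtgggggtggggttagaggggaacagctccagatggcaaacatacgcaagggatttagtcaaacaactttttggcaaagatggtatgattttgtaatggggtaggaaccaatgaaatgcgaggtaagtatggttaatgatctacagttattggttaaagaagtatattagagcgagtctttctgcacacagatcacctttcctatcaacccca
Afp, chr5:90490464-90490763, plus strand: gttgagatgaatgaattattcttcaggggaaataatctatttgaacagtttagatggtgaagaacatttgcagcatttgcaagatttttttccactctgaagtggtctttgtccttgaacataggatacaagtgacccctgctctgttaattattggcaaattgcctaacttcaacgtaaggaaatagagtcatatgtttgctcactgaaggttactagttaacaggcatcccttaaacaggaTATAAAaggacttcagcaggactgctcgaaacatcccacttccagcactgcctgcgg
Krt18, chr15:102027966-102028265, plus strand: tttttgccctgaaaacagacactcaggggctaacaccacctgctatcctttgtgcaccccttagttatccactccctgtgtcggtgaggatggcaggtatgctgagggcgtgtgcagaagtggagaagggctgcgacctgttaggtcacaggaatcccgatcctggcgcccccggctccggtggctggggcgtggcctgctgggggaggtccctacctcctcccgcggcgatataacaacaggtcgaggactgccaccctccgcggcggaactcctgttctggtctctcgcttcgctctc
Gpc3, chrX:52613925-52614224, minus strand: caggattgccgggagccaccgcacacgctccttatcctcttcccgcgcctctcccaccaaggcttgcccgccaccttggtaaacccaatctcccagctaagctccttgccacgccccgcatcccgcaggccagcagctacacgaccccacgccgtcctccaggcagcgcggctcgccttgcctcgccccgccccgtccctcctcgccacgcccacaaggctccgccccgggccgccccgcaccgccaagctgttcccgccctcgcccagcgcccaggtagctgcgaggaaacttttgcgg
The HNF4 core begins at position -182 from the start in Alb and the TATA letters at -7 in Afp, and none of these letters is in the Krt18 and Gpc3 windows. Alb and Afp windows are poor in CpG, with 3 CpG each and 40.0% G and C, against 17 CpG and 61.3% in Krt18 and 30 CpG and 70.7% in Gpc3 (the median over all windows is 7 CpG and 52.7%). Other members showed both combinations. Near-silent Onecut1 had 38 CpG and near-silent Fga 3, while expressed Met had 34 and expressed Spp1 3 in each window. Of the 34 members 28 had a window, and the TATA letters were in a window of 10 of them (35.7%), against 15.7% of 27025 genes. Those 10 were Afp, Apoa2, Apob, Cebpa, Foxa2, Foxa3, Krt8, Nr5a2, Prox1 and Spp1, both near-silent and expressed members. The letters began at -30 in Cebpa, -34 in Prox1, -36 in Foxa3 and -60 in Apob. In Nr5a2, Foxa2, Spp1 and Apoa2 they began at -181 to -212, and in Krt8 at -3 and -1. Those of Prox1, Foxa2 and Nr5a2 lay on the other strand, as did the Krt8 match at -3. Since matches anywhere in the window were counted, the shares do not count TATA boxes at a fixed position. For the FOXA letters TGTTTAC the shares were 10.7% of members and 4.05% of genes, and for the HNF4 core CAAAGTC 7.14% and 5.00%.

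Which lineage genes the tumours still expressed was read from levels per length, as RPKM (CPM divided by exon length in kilobases), since counts of genes of different length are not comparable. In untreated tumours 12 of the 34 members reached a mean of 1 RPKM, and in doxycycline tumours 15 did. Of all named genes with a length, 58.6% reached that level in untreated tumours. At the limit in untreated tumours, Epcam lay just above at 2.07 RPKM and Hgf just below at 0.777. Biliary and simple epithelial genes made up 7 of the 12. In bulk tissue, fewer cells of a type and less RNA per cell cannot be told apart.

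**Figure D2:**
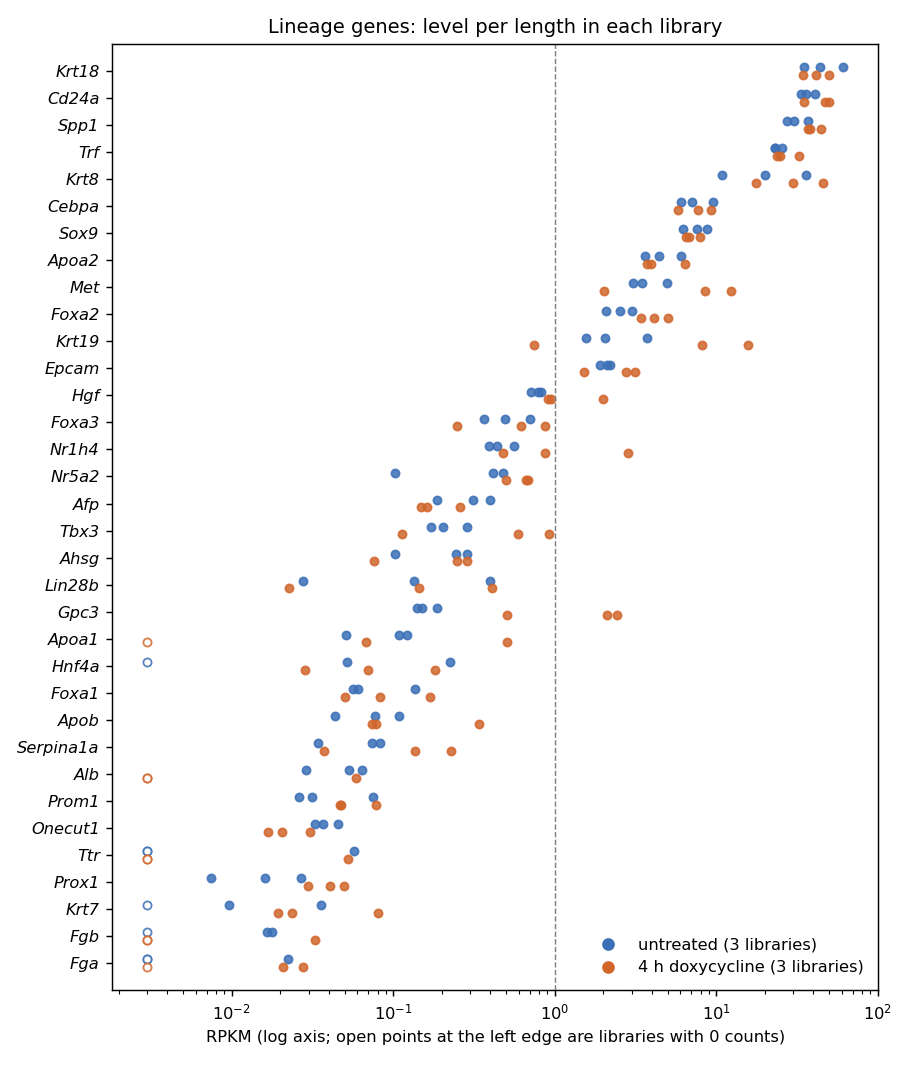
RPKM of each lineage gene (rows, ordered by the untreated mean) in each library on a log axis, untreated in blue and 4 h doxycycline in orange; the dashed line marks 1 RPKM and open points are libraries with 0 counts. Keratins 18 and 8, Cd24a, Spp1 and Trf led, 12 members lay above 1 RPKM in the untreated mean, and most plasma protein genes lay below 0.3 RPKM.

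Simple epithelial and biliary genes were the most abundant members. Krt18, a keratin of all simple epithelia, was at 46.8 ± 13.2 RPKM (SD, n = 3) in untreated tumours. Next came Cd24a, a surface glycoprotein of progenitor cells, at 36.7 ± 3.77, and Spp1, the secreted phosphoprotein osteopontin, at 31.6 ± 5.06 RPKM. Krt8, the partner of keratin 18, was at 22.2 ± 12.6 RPKM. In the order Krt18, Cd24a, Spp1, Trf, Krt8, neighbours overlapped in mean ± SD, except Spp1 and Trf. Sox9, a transcription factor of ducts and progenitors, was at 7.55 ± 1.26 RPKM. Krt19 followed at 2.43 ± 1.13 and the adhesion molecule Epcam at 2.07 ± 0.152 RPKM. Krt7, the other duct keratin, had 0, 4 and 1 counts in the untreated libraries (0.0151 RPKM), and the stem cell antigen Prom1 had 3, 3 and 8. The set of expressed biliary markers therefore held Krt19 and Sox9 without more than traces of Krt7 and Prom1. Processed copies of Krt8, Krt18 and Cd24a exist elsewhere in the genome, and how the authors' counting treated reads shared with them is not given in the sources used here.

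Plasma protein genes of hepatocytes were mostly at the limit of detection. Alb, the main plasma protein, had 2, 2 and 1 counts in the untreated libraries in order of replicate, and 0, 2 and 0 in the doxycycline libraries. Ttr, the thyroxine carrier, had 1 count in each group. The fibrinogen chain genes Fga and Fgb had 1 and 2 counts over the untreated and 2 and 2 over the doxycycline libraries. For scale, 3 counts over the untreated group correspond to 0.0682 CPM. Apoa1, the main protein of high-density lipoprotein, had 5 untreated counts, and Serpina1a, alpha-1-antitrypsin, had 5, the latter with near-identical paralogs that make its count uncertain. The fetal carrier gene Ahsg had 3, 10 and 8 untreated counts. Apob, the large lipoprotein scaffold, had 8, 24 and 16 untreated counts over 13934 exonic bases (0.0763 RPKM). The exceptions in this group were Trf, which encodes transferrin, and Apoa2, an apolipoprotein. Trf had 1018, 1219 and 1253 untreated counts (23.9 ± 1.35 RPKM), more than any other plasma protein of the list. Apoa2 had 43, 38 and 29 untreated counts over only 537 exonic bases, or 4.71 ± 1.23 RPKM. Albumin, for comparison per length, was at 0.0490 RPKM.

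Transcription factors of the liver network were split. Cebpa, the factor C/EBP alpha of hepatocyte differentiation, was at 7.58 ± 1.79 RPKM and Foxa2, a pioneer factor of endoderm, at 2.53 ± 0.461 RPKM in untreated tumours. Foxa3 (0.521 RPKM), the bile acid receptor gene Nr1h4 (0.462), the orphan receptor gene Nr5a2 (0.333) and Tbx3, a factor of hepatoblast growth (0.220), were lower. Hnf4a, the central hepatocyte factor, had 0, 4 and 16 counts untreated and 4, 2 and 14 after doxycycline, so that replicate 3 held most of its counts in both groups. Foxa1 had 3 to 6 untreated counts, Onecut1 2 to 3, and Prox1, which drives hepatoblast migration, 1 to 3. Among the 3 oncofetal members, Afp had 14, 10 and 20 untreated counts (0.30 ± 0.108 RPKM). Lin28b, an RNA-binding repressor of let-7, was at 3.63, 0.251 and 1.21 CPM, a 14.4-fold range among untreated libraries. Gpc3 had 5, 8 and 6 untreated counts (0.159 RPKM).

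Between the groups, 1 of the 21 members that passed the filter on low counts was past the threshold of 0.05 on the edgeR adjusted p, and it was higher after doxycycline. Over all 14809 genes tested 5.02% were past it (2.84% higher, 2.18% lower), so 1 of 21 is close to the background share. The split of all calls was 421 higher and 323 lower, and 297 and 389 with offsets for GC content and length, where Gpc3 was still past the threshold. The 13 members not tested never exceeded 16 counts in a library. Values of the log2 fold change were positive for 18 of the 21 and negative for 3, with a median of 0.35, against 51.1% positive and a median of 0.01 over all genes tested. An unadjusted p under 0.05 was reached by 4 members (Gpc3, Foxa2, Nr1h4 and Spp1) and by 23.9% of all genes. The groups did not overlap for 5 members (23.8%: Gpc3, Foxa2, Nr5a2, Spp1 and Hgf), against 29.6% of all genes tested. All 5 were higher, so 23.8% of the tested members were without overlap and higher, against 15.2% of all genes tested. Of the members too low to test, Prox1 (higher) and Onecut1 (lower) also did not overlap, at no more than 5 counts in any library.

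**Figure D3:**
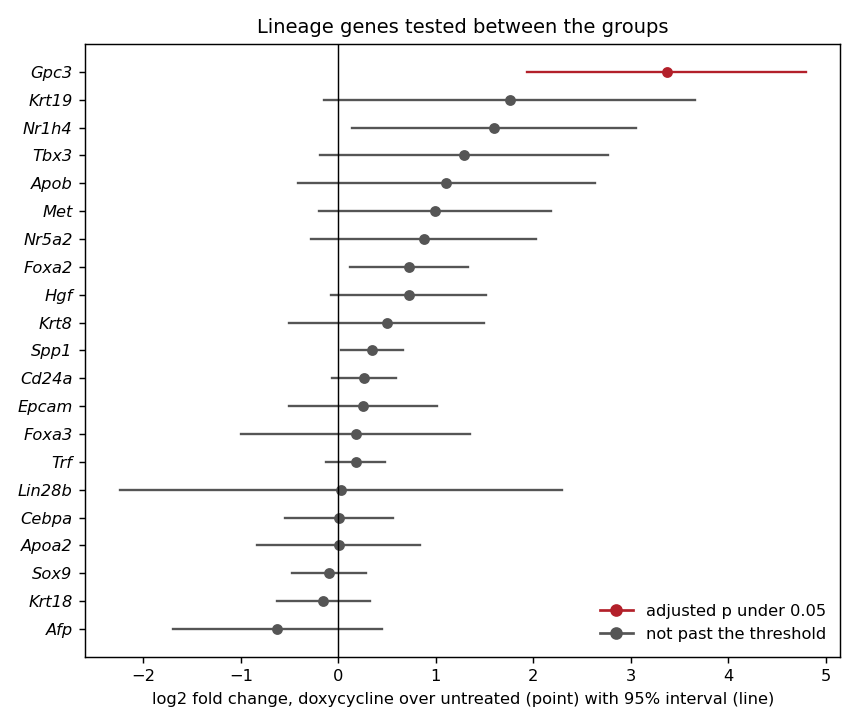
Log2 fold change (doxycycline over untreated) of the 21 tested lineage genes, with 95% intervals from the edgeR quasi-likelihood fit; red marks an adjusted p under 0.05. Gpc3, at 3.37, is the only gene in red, and the intervals of Foxa2, Nr1h4 and Spp1 also lie above 0 before adjustment.

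Gpc3 encodes glypican 3, a heparan sulphate proteoglycan of the cell surface that fetal liver and many liver cancers make, and that fetal mesenchyme makes as well. Its counts were 5, 8 and 6 in the untreated libraries and 78, 20 and 91 in the doxycycline libraries, in order of replicate. Every doxycycline library was above every untreated one, with doxycycline replicate 2 well below the other two. The mean rose from 0.428 ± 0.0657 to 4.54 ± 2.77 CPM (SD, n = 3 each), a log2 fold change of 3.37 (SE 0.63, 95% interval 1.94 to 4.80, edgeR adjusted p = 0.0261). It passed the filter on low counts only through the doxycycline group. In the same libraries muscle markers rose (10 of 15 past the threshold, median log2 fold change 3.60), and 3 of 12 fibroblast and mural markers were past it (median 0.75). Their part in the Gpc3 difference was not tested. The call was lost in limma-voom (3.01, adjusted p = 0.0788), without doxycycline replicate 1 or 3 (adjusted p = 0.0600 and 0.0733), without untreated replicate 1, 2 or 3 (0.134, 0.0970 and 0.14), and without both libraries with keratinocyte markers (log2 fold change 3.13, edgeR adjusted p = 0.161), an alternative chosen after seeing the data. Few genes of the whole table passed in some of these fits. Without untreated replicate 1, 2 or 3 they were 23, 52 and 27, against 744 with all libraries. Without both libraries with keratinocyte markers they were 0. Over these and all other alternatives the Gpc3 log2 fold change stayed between 3.01 and 3.80 and the adjusted p between 0.000138 and 0.161.

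A group of members was low in doxycycline replicate 2 and higher in the other doxycycline libraries. Krt19, the duct keratin, was at 6.87, 2.89 and 3.78 CPM untreated and at 15.2, 1.37 and 29.0 CPM after doxycycline. Doxycycline replicate 2 was thus below all untreated libraries, and the highest doxycycline library was 21.1 times the lowest. Met, the HGF receptor gene, showed the same order, with 37.9, 23.4 and 26.8 CPM untreated and 65.6, 15.6 and 94.4 CPM after doxycycline. For Tbx3 the values were 1.13, 1.88 and 1.35 CPM and 6.11, 0.755 and 3.95 CPM. Nr1h4, the bile acid receptor FXR, was at 0.907, 1.0 and 1.28 CPM and at 2.01, 1.1 and 6.52 CPM, so its doxycycline mean rests largely on replicate 3. None of the 4 passed over all libraries (log2 fold changes 1.76, 1.0, 1.29 and 1.59, edgeR adjusted p = 0.246, 0.292, 0.273 and 0.175). The values moved both ways with the library left out. Without doxycycline replicate 2 they were 2.30, 1.45, 1.77 and 2.0 for Krt19, Met, Tbx3 and Nr1h4, and all 4 came past the threshold in a fit in which 8.18% of all genes were higher. Of the tested members, 12 were lowest of the doxycycline libraries in replicate 2, Gpc3 and Krt8 among them, 5 in replicate 1 and 4 in replicate 3. How many of all genes were lowest in replicate 2 was not counted, so the 12 are not read as a trait of the members. The 4 described here are those that came newly past the threshold without doxycycline replicate 2. Their calls were thus fixed by the choice and are a description and no test. Without doxycycline replicate 3 the values were 0.87, 0.46, 1.21 and 0.53, and none passed (edgeR adjusted p = 0.623, 0.683, 0.424 and 0.578). Replicate 2 was also the doxycycline library with the most muscle marker counts (3069 CPM, against 1515 and 449 in replicates 1 and 3), and what part these had in the order was not tested.

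**Figure D4:**
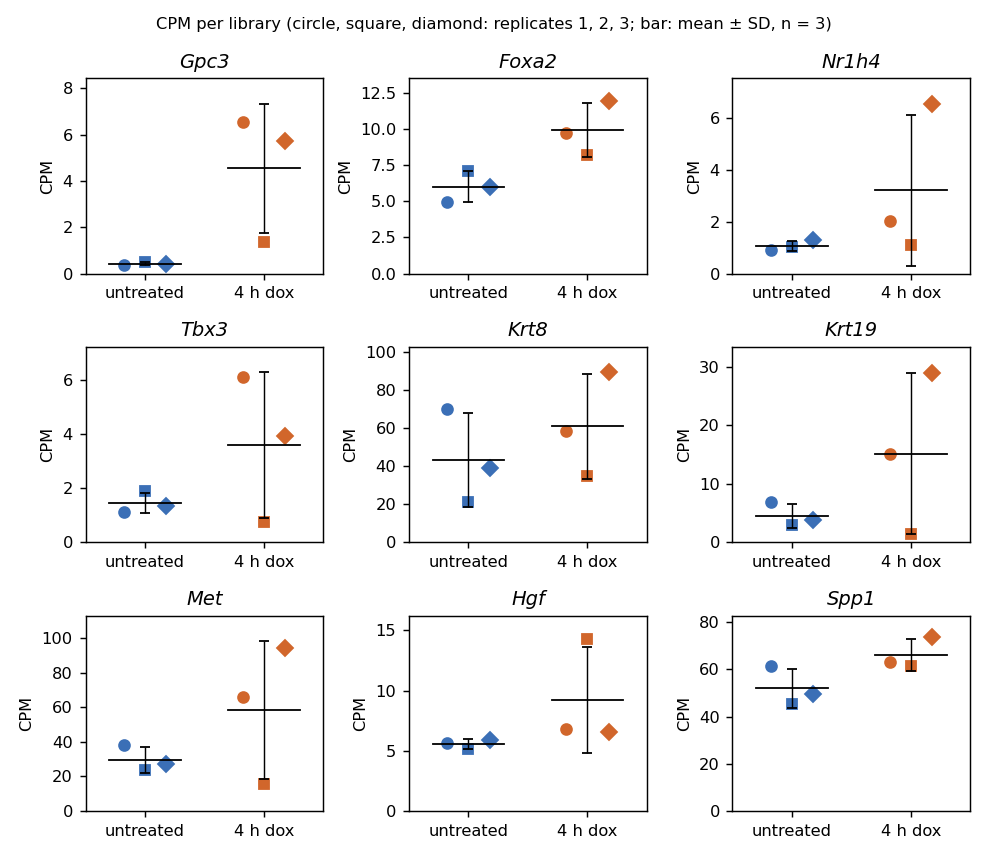
CPM of 9 lineage genes in each library, with untreated in blue and 4 h doxycycline in orange, circles, squares and diamonds for replicates 1, 2 and 3, and bars for the mean ± SD (n = 3). Doxycycline replicate 2 (orange square) is the lowest doxycycline library for Gpc3, Foxa2, Nr1h4, Tbx3, Krt8, Krt19, Met and Spp1, and the highest for Hgf, at 14.3 CPM.

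HGF, the ligand of MET, is made by mesenchymal cells rather than by hepatocytes. Hgf was at 5.67, 5.15 and 5.93 CPM in untreated and 6.78, 14.3 and 6.58 CPM in doxycycline libraries, where replicate 2 was the highest. Ligand and receptor were thus highest in different doxycycline libraries. The Hgf difference was 0.72 (SE 0.35, edgeR adjusted p = 0.251), and without doxycycline replicate 2 it was 0.26.

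Foxa2, Spp1 and Nr5a2 did not overlap between the groups and did not pass. Foxa2 was at 4.91, 7.10 and 6.0 CPM in untreated and 9.72, 8.17 and 11.9 CPM in doxycycline libraries. The fitted difference was 0.72 on the log2 scale (SE 0.27, interval 0.12 to 1.33, edgeR adjusted p = 0.146). Spp1 was at 61.3, 45.1 and 49.6 CPM and then at 63.1, 61.4 and 73.7 CPM, with untreated replicate 1 just below the lowest doxycycline library (0.35, SE 0.14, edgeR adjusted p = 0.174). With offsets for GC content and length the Spp1 value was 0.16 (adjusted p = 0.533). Osteopontin is also a product of macrophages. In the same libraries 8 of 9 macrophage markers had a positive log2 fold change (median 0.63), and 3 were higher and past the threshold. They summed to 349 to 413 CPM untreated and 484 to 641 CPM after doxycycline. The part of these markers' cells in the Spp1 values was not tested. Nr5a2 was at 0.604, 2.45 and 2.83 CPM and then at 3.94, 2.95 and 4.01 CPM (0.88, SE 0.51, adjusted p = 0.334), with untreated replicate 1 as the lowest library.

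The abundant lineage genes showed small differences with narrow intervals. Trf went from 79.3 ± 4.48 to 89.6 ± 16.1 CPM (log2 fold change 0.18, 95% interval -0.12 to 0.47, edgeR adjusted p = 0.457). Sox9 had a value of -0.09 (-0.47 to 0.29), Krt18 of -0.16 (-0.63 to 0.32), Cd24a of 0.26 (-0.07 to 0.59) and Cebpa of 0.01 (-0.54 to 0.56). A doubling, which is a log2 fold change of 1, lies outside each of these intervals. Between the shallowest and the deepest untreated library the total grew 1.23-fold, and the median abundant gene grew less. The median gene's ratio was 1.24 for genes at 0.05 to 0.1 counts per exonic base and 1.14 for genes at 0.5 to 1. Cd24a (0.535 counts per base) and Krt18 (0.674) lie in the upper range. Their own ratios between the same libraries were 0.983 and 0.690, below that median. The part of depth in their fold changes was not tested. Krt8 varied more, at 70.0, 21.3 and 39.0 CPM untreated and 58.6, 34.6 and 89.8 CPM after doxycycline (0.49, SE 0.44, adjusted p = 0.540). Its partner Krt18 spanned 1.74-fold among untreated libraries, against 3.29-fold for Krt8. Epcam was at 4.18 to 4.84 CPM untreated and 3.32 to 6.87 CPM after doxycycline (0.25, adjusted p = 0.696).

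At low counts little could be resolved. Afp was at 1.06, 0.628 and 1.35 CPM untreated and 0.503, 0.549 and 0.877 CPM after doxycycline (log2 fold change -0.63, 95% interval -1.70 to 0.45, edgeR adjusted p = 0.463). Apob had 8, 24 and 16 counts and then 13, 15 and 76, so that doxycycline replicate 3 alone stood out (1.11, adjusted p = 0.354; -0.02 without that library). Lin28b had 48, 4 and 18 counts untreated and 44, 3 and 21 after doxycycline, with replicate 2 lowest in both groups (0.03, 95% interval -2.24 to 2.29). Foxa3 (0.18) and Apoa2 (0.00) had adjusted p of 0.875 and 0.998. Alb, with 5 and 2 counts over the groups, had a ratio of 0.414 with an exact 95% counting interval of 0.0395 to 2.53, which covers counting error only.

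Companion genes of the same programmes were counted from 7 lists that hold none of the members. Of 98 companions 63 were tested, 2 were higher and 1 was lower, close to the background of 2.84% and 2.18% of all genes. Their median log2 fold change was 0.06. Among 19 further plasma protein genes, 8 were tested and C3, the central complement component, was higher: 193, 227 and 280 counts untreated against 530, 362 and 862 after doxycycline (1.37, SE 0.28, edgeR adjusted p = 0.0326). C3 is made by macrophages and fibroblasts as well as hepatocytes, and the marker values given with Gpc3 stand beside it. Apoe, another product shared with macrophages, was at 31.9 RPKM untreated, with Hp at 4.56 and Rbp4 at 4.44. Of 22 hepatocyte enzymes and transporters 13 were too low to test, and Hamp had 0 counts in every library. Adh1, an alcohol dehydrogenase of liver and also of fibroblasts, had 0, 1 and 1 counts untreated and 21, 24 and 13 after doxycycline (pooled ratio 30.0, 95% counting interval 7.95 to 254; edgeR log2 fold change 4.70, 95% interval 3.04 to 6.37, adjusted p = 0.0164). Like Gpc3, it passed the filter on low counts only through the doxycycline group. Arg1 (19 RPKM untreated), Fah (8.41) and Asl (7.41), which serve amino acid breakdown and the urea cycle, were expressed, and none of the 3 passed. Which cells of the tumours made these transcripts was not tested. Macrophage markers, for one, summed to 349 to 413 CPM in the untreated libraries. Cps1, which starts the urea cycle, had 4, 0 and 5 untreated counts, and was chosen after its values were seen.

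Among 13 further liver transcription factors Cebpb was lower. Cebpb, the inducible relative of C/EBP alpha in the acute phase response, had 346, 396 and 386 counts untreated and 146, 213 and 223 after doxycycline, or 25.7 ± 0.701 and 13.6 ± 1.24 CPM (-0.91, SE 0.16, edgeR adjusted p = 0.0234). With offsets for GC content and length the value was -0.57 and did not pass (adjusted p = 0.0861). Cebpb shares 312 exonic bases with the opposite-strand gene Tmem189, and whether the counting used strand is not given in the sources used here. Neutrophils also express Cebpb, and in the same libraries the 5 neutrophil markers measured summed to 97.5 to 150 CPM untreated and 39.9 to 73.5 CPM after doxycycline. All 5 were lower without overlap (median -1.42), and 1 of them, Csf3r, passed the test (-1.55, edgeR adjusted p = 0.0486). Their part in the Cebpb difference was not tested. Cebpa was at 20.0 ± 4.73 and 20.1 ± 4.59 CPM, and the difference between both changes was not tested. Gata4 (23.9 RPKM untreated), the nuclear receptor partner Rxra (17.8) and Hhex (4.18), all factors of early liver development or its receptors, were expressed and did not pass. The calls of C3, Adh1 and Cebpb were each lost without any 1 untreated library (adjusted p from 0.0804 to 0.162), at fold changes of 1.27 to 1.51, 4.26 to 5.04 and -0.95 to -0.90 on the log2 scale, and without both libraries with keratinocyte markers (0.128 to 0.216). As given with Gpc3, few or no genes of the whole table passed in the fits without an untreated library or without the libraries with keratinocyte markers. C3 was lost also without doxycycline replicate 1 or 3 (0.0824 and 0.0919) and in limma-voom (0.0796), and Cebpb without doxycycline replicate 3 (0.0589).

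No gene passed among the further biliary (11 tested), progenitor and oncofetal (9), epithelial junction (7) and HGF activation and MET signalling (9) companions, of which 3, 2, 1 and 1 reached an unadjusted p under 0.05 in edgeR, against 23.9% of all genes. DESeq2 called 4 of the 63 tested companions of all 7 lists higher and 3 lower. The same fit called 887 of all 14809 genes higher and 782 lower, so these counts stand beside a larger background. The progenitor and oncofetal list held some of the most abundant genes, with Cd44, the hyaluronan receptor, at 32.0 RPKM untreated, and Igf2bp1 and Igf2bp2, fetal RNA-binding proteins, at 26.6 and 26.2. Igf2bp1 had a log2 fold change of -0.26 (SE 0.07, edgeR adjusted p = 0.0600). Biliary companions were led by Anxa4 (16.1 RPKM), the water channel Aqp1 (14.1) and the anion exchanger Slc4a2 (14.0; -0.33, adjusted p = 0.0687). Of the signalling companions Plau, a protease that can activate HGF, was at 47.1 RPKM, with the MET adaptors Grb2 at 24.1 and Gab1 at 10.2. Junction genes divided by library. Tjp1, a scaffold of tight junctions, was at 47.7 RPKM untreated, and Ocln, occludin, at 2.98 RPKM (1.20, adjusted p = 0.0772). Dsp, desmoplakin, had 7, 946 and 10 counts untreated and 839, 11 and 38 after doxycycline, high in the 2 libraries with keratinocyte markers. Cdh1, epithelial cadherin, chosen after its values were seen, had its highest counts in the same libraries (85 and 130, against 3 to 28 in the other 4). Of the lineage keratins, Krt8 and Krt18 were lowest of the untreated libraries in replicate 2, while Krt18 was highest of the doxycycline libraries in replicate 1 (71.3 CPM, against 49.6 and 60.0).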

How the data were processed

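Ribosome-depleted RNA of 6 tumours' libraries (3 untreated, 3 after doxycycline) was sequenced. The deposited table holds raw read counts per gene, made by the authors with TopHat2 2.0.8, TopHat and HTSeq and the build mm9; these names come per the submitters' processing notes, without role or order. Whether counting used strand, and how multiply mapped or duplicate reads were handled, is not given in the sources used here. Of 21761 rows, 90 carried no gene name (0.0361% to 0.0402% of counts) and were left out. Groups came from the sample titles. Counts were fitted in R 4.3.3 with edgeR 4.0.16: filterByExpr, TMM scaling (factors 0.985 to 1.02), robust quasi-likelihood test, two-sided, Benjamini-Hochberg adjustment over 14809 genes, threshold 0.05. CPM used TMM-adjusted totals. RPKM used exon unions from GENCODE M21 (GRCm38), matched by symbol for 21446 genes. Intervals are 95%. Pooled ratios carry exact binomial intervals for counting error only. The fit was tested on simulated data.

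Members and lists were chosen with earlier results of these data known. Named genes were St18, the 34 members, and from each companion list those past the threshold plus up to 3 others of the highest mean RPKM. Alternatives were DESeq2 1.42.0, limma-voom (limma 3.58.1), RLE and upper quartile scaling, no filter on low counts, GC and length offsets, a replicate block, each library left out, other RPKM limits (0.5 and 5) and transcript lengths. Leaving out both libraries with keratinocyte markers was added after seeing the data. No libraries of the same group were duplicates of each other: chi-square divided by its degrees of freedom was 5.17 to 29.8. Pairs between the groups were not compared in this way.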

Additional observations from a re-analysis of the deposited data

How the results depend on the processing

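The median log2 fold change of the lineage genes (0.35) stayed between 0.21 and 0.47 under every alternative run. The count of lineage genes higher (1) was 0 in limma-voom and 0 with both libraries with keratinocyte markers left out, and 0 to 5 with 1 library left out. Unadjusted p under 0.05 was reached by 3 and 2 members in the first pair of fits. None was called lower in any fit. For all genes (421 higher, 323 lower) DESeq2 called 887 and 782, limma-voom 251 higher, and 0 were called without both libraries with keratinocyte markers (2610 genes at an unadjusted p under 0.05). Leaving out 1 library gave 11 to 1244 higher and 12 to 866 lower. Companion genes (2 higher, 1 lower) were 4 and 3 in DESeq2, 1 higher in limma-voom, 0 lower with GC and length offsets, 0 and 0 without both libraries with keratinocyte markers, and 0 to 6 higher and 0 to 3 lower with 1 library left out. With the replicate block, 215 genes were higher and 179 lower, Gpc3 stayed past the threshold (3.13, adjusted p = 0.0449), and no companion was lower (Cebpb -0.92, adjusted p = 0.0639). Same-numbered libraries did not deviate together (correlations -0.0098, -0.0747 and 0.0155), so the numbers were not taken as pairs. At least 5 RPKM was reached by 7 members untreated and 9 after doxycycline, in place of 12 and 15 at 1 RPKM. Depth limits the 13 untested members, none above 16 counts in a library.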

Other observations

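A few companion genes outside the naming rule had values that stood apart and were chosen after they were seen. Slc10a1, the bile acid uptake transporter of hepatocytes, had 138, 269 and 158 counts untreated and 111, 224 and 225 after doxycycline (5.76 RPKM untreated), while the hepatocyte enzyme gene Cyp3a11 had 1, 0 and 1 counts untreated. Lgr5, a receptor of epithelial stem cells, was at 73, 91 and 86 counts untreated and at 93, 537 and 48 after doxycycline, so that doxycycline replicate 2 alone was high (log2 fold change 1.48, edgeR adjusted p = 0.277). Gata6, an endoderm factor, had 301, 306 and 268 counts untreated and 491, 214 and 811 after doxycycline, low in replicate 2 as Krt19 and Met were (0.83, edgeR adjusted p = 0.234).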
